A study of Mus musculus with 3 samples.

Results

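The Dlx family of mouse homeobox genes, Dlx1 to Dlx6, was examined in chromatin of small intestinal crypts. The study asked what Polycomb repressive complex 2 (PRC2) does in the intestine, and mapped Suz12, a core subunit of that complex, and trimethylation of lysine 27 on histone H3 (H3K27me3), the mark the complex lays down. The 3 chromatin libraries came from crypts of C57BL/6 mice carrying Lgr5Gfp-CreERT2, an allele at the stem cell gene Lgr5 that also encodes a fluorescent protein and a tamoxifen-inducible recombinase. This allele was common to all libraries, and the design text calls the cells wild type. The chromatin was fixed with 1% formaldehyde and sheared by sonication. One library was precipitated with an antibody to Suz12, 1 with an antibody to H3K27me3, and 1 input library received no antibody. The age, sex and number of mice, and whether any were pooled, are not given in the sources used here. Isolated crypts hold stem, progenitor, Paneth and other cells together, so a peak could come from any of them.

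The Dlx genes were the 6 members of the family, and a peak was assigned to a gene when it lay on the gene body or within 10 kb of it. By that rule 27 of 1477 Suz12 peaks and 77 of 25955 H3K27me3 peaks belonged to the family. Each antibody had 1 library, so values carry no replicate error and genes or pairs could not be tested against each other. All counts, shares and ranks describe these libraries.

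Dlx proteins are homeodomain transcription factors, the vertebrate relatives of Distal-less of the fruit fly. The genes lie in pairs that point toward each other and share enhancers in the sequence between them. They are best known for patterning the branchial arches and limbs and for the development of inhibitory neurons, bone, skin and placenta. PRC2 commonly holds such developmental regulators silent in cells of other lineages, often over broad regions with many CG dinucleotides.

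Both antibodies gave peaks at every Dlx gene. All 6 genes had a Suz12 peak within 10 kb, against 3.14% of 14868 protein-coding genes placed in the same way. All 6 also had an H3K27me3 peak within 10 kb, against 26.3% of those genes. On the gene body itself all 6 genes had peaks of both lists, where 2.24% of the placed genes had a Suz12 peak and 17.8% an H3K27me3 peak. Dlx genes were placed by H3K27me3 peaks at other genes, and the other genes by those at start sites that included their own. These H3K27me3 shares are thus not independent of the placing. Nor are the Suz12 shares, since 96.3% of all Suz12 peaks overlapped an H3K27me3 peak. A measure that needs no genes gave low shares as well: 0.563% of consecutive 25-kb windows of the autosomes held a Suz12 peak and 7.49% held an H3K27me3 peak. The family was chosen with earlier results of these data known, and its count is a description.

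The 3 pairs carried much the same amount of H3K27me3 and very unequal amounts of Suz12. Over both genes, the sequence between them and 10 kb on each side, H3K27me3 peaks covered 60.8% at Dlx1 and Dlx2, 49.8% at Dlx3 and Dlx4, and 53.8% at Dlx5 and Dlx6. Suz12 peaks covered 43.8%, 6.52% and 7.14% of the same windows. In bases this was 16938 bp of Suz12 at Dlx1 and Dlx2, 3012 bp at Dlx3 and Dlx4, and 2766 bp at Dlx5 and Dlx6. The Suz12 list is much the shorter of the lists, and lower sites are not in it, so sequence outside a Suz12 peak is not shown to lack Suz12.

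**Figure D1:**
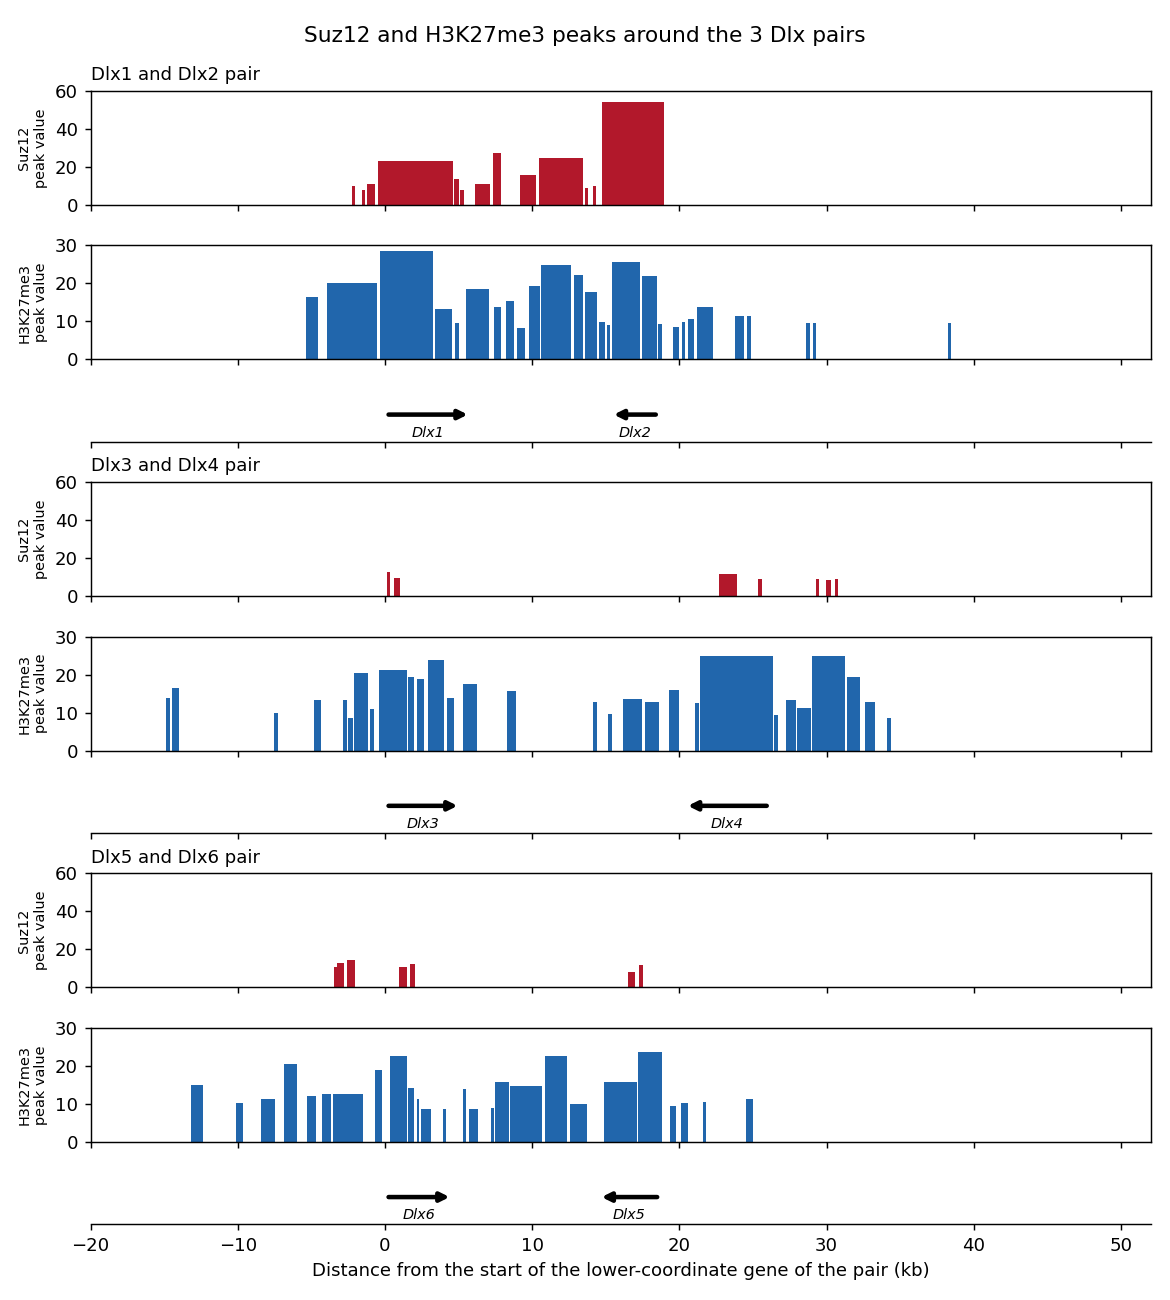
Peaks at the 3 Dlx pairs, drawn as boxes as wide as the peak and as high as its deposited value, for Suz12 (red, axis to 60) and H3K27me3 (blue, axis to 30), against distance in kb from the start of the gene at the lower coordinate. Arrows mark the gene bodies: Suz12 boxes run across the Dlx1 and Dlx2 pair and are few at the other pairs, while H3K27me3 boxes extend over all 3.

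The Dlx1 and Dlx2 pair, on chromosome 2, had the broadest Suz12 cover of the family. Dlx1 and Dlx2 act together in the ventral forebrain, where they drive the differentiation and migration of inhibitory neurons, and in the upper part of the branchial arches. The promoters of both genes, the members with an entry in the promoter table, are printed below to show the sequence at starts placed in or at the edge of peaks of both lists. They are RefSeq sequences of build GRCm38.p6, 250 bases before to 50 bases after the start, from chr2:71529195-71529494 on the plus strand for Dlx1 and chr2:71546705-71547004 on the minus strand for Dlx2. Capitals mark the dinucleotide CG, which reads the same on both strands.
Dlx1: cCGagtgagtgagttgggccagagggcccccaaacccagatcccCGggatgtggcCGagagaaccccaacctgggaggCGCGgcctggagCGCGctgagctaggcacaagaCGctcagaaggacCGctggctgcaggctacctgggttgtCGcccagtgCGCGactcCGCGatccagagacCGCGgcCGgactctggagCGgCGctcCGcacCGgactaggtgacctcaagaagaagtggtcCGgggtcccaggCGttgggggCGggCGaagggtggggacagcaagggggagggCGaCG
Dlx2: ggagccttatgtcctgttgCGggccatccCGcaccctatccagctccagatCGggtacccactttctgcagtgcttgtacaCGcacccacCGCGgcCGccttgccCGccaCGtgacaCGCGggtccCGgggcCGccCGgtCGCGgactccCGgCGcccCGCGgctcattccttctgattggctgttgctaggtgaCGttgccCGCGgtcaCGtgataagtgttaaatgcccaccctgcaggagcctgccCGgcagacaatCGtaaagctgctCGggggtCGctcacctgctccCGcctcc
The Dlx1 promoter held 27 CG dinucleotides, a number reached by 15.5% of 32851 promoters of the same length in the table. The Dlx2 promoter held 29, a number reached by 12.9% of them. The median promoter held 7. G and C made up 69.3% of the Dlx1 promoter and 66.3% of the Dlx2 promoter, against a median of 52.7% over all promoters. A CG count is a description of the letters and shows no binding.

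Peak values are those the authors deposited, on a scale that starts at 8 and whose meaning the sources used here do not give; they rank peaks within a list only. The Suz12 peak over the start of Dlx1 was chr2:71366111-71371181 (mm9), with a value of 22.92. At 5071 bp it was the 6th widest Suz12 peak, and it covered most of the gene. The Suz12 peak over Dlx2 was chr2:71381325-71385500, 4176 bp wide, and ran across the whole placed body. Its value of 53.97 ranked 7th of 1477, and the list's highest value was 72.48.

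Between these peaks Suz12 also covered most of the stretch that separates the genes. The larger peaks there were chr2:71376993-71379983 (2991 bp, value 24.92), chr2:71375714-71376838 (1125 bp, 16.01), chr2:71373904-71374463 (560 bp, 27.28) and chr2:71372694-71373700 (1007 bp, 11.02). The small peaks chr2:71380137-71380362 and chr2:71380652-71380867 had values of 9.19 and 10.14. At the 3′ end of Dlx1 lay chr2:71371252-71371567 with a value of 13.45 and chr2:71371635-71371922 with 8.05. Upstream of Dlx1 there were 3 more, chr2:71364326-71364551, chr2:71364983-71365182 and chr2:71365334-71365869, with values of 9.99, 8.05 and 10.81. So the wide, high peaks sat over the genes and the sequence between them, and the outer ones were narrow and low in the list.

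Suz12 covered 89.2% of the Dlx1 body, 70.5% of the 9426 bp between the genes and all of the Dlx2 body. Upstream of the genes the share was 14.0% over 10 kb at Dlx1 and 3.06% over 10 kb at Dlx2. From start to start, over 18.6 kb, the longest stretch without Suz12 was 1250 bp. H3K27me3 covered 85.9% of the Dlx1 body, 81.7% of the sequence between and 3012 of the 3347 bp of the Dlx2 body, and its longest gap from start to start was 457 bp. Beyond the starts H3K27me3 reached farther than Suz12, with 45.1% of the 10 kb upstream of Dlx1 and 32.4% of that upstream of Dlx2.

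The highest H3K27me3 peak of the pair, chr2:71366234-71369802, also lay over the start of Dlx1, with a value of 28.54 (rank 314 of 25955) and a width of 3569 bp. It lay wholly under the wide Suz12 peak. The next highest were chr2:71381948-71383896 on Dlx2 (1949 bp, 25.73) and chr2:71377145-71379220 between the genes (2076 bp, 24.94). The second widest, chr2:71362620-71365981, spanned 3362 bp upstream of Dlx1 with a value of 20.2. The H3K27me3 peak over the placed start of Dlx2 was a low one, with a value of 9.4. Beside it in the body lay one of 989 bp with a value of 22.06, and which of these holds the start is not settled. The start of Dlx1 in the promoter table lay 1774 bp inside its Suz12 peak and 1651 bp inside its H3K27me3 peak. The end of the gene body that served as the start of Dlx1 elsewhere lies farther upstream and nearer the edge of both peaks. The start of Dlx2 lay 307 bp and 73 bp from the edge of its peaks, which is less than the error of its position.

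The Dlx3 and Dlx4 pair, on chromosome 11, carried few and low Suz12 peaks. Dlx3 is needed in the placenta and for hair, teeth and the outer layers of the skin, and Dlx4 is its less studied partner. Dlx3 had only 2 Suz12 peaks within 10 kb, chr11:94981574-94981824 (251 bp, value 12.66, rank 610) and chr11:94982047-94982482 (436 bp, 9.41). Both lay within about 1 kb of the placed start of Dlx3, at 0.24 and 0.81 kb downstream by their middles. Over the placing settings the shift of this pair ran from 138480 to 138880 bp. The true error of the position is not known, so whether the peaks sit before or after the start is not settled.

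Dlx4 had 5 Suz12 peaks. The widest, chr11:95004136-95005373, lay in the body, with 1238 bp and a value of 11.67, the median of the whole list. A narrow one, chr11:95006820-95007035 (9.19), lay nearest the start of Dlx4. The other 3 lay 3.22 to 4.49 kb upstream: chr11:95010737-95010971 (9.19), chr11:95011412-95011784 (8.81) and chr11:95011995-95012257 (9.19). These 3 lay under 1 wide H3K27me3 peak, chr11:95010480-95012680.

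Between Dlx3 and Dlx4 no Suz12 peak was listed over 15150 bp, and the longest stretch without Suz12 from start to start was 21653 bp of 26.2 kb. Suz12 covered 13.3% of the Dlx3 body and 24.9% of the Dlx4 body. H3K27me3 covered 75.1% of the Dlx3 body and 86.4% of the Dlx4 body, and 33.0% of the sequence between. The bodies of these genes were thus nearly as widely marked as those of Dlx1 and Dlx2, and the sequence between them less so. Upstream over 10 kb, H3K27me3 covered 61.4% at Dlx4 and 28.8% at Dlx3.

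The widest H3K27me3 peak of any pair was chr11:95002857-95007824, 4968 bp over Dlx4, with a value of 24.94 and the 20th place by width in the whole list. The peak upstream of Dlx4, chr11:95010480-95012680, was the highest of the pair, with 25.01 over 2201 bp. At Dlx3 the highest was chr11:94984388-94985464 (1077 bp, 23.97), in the body. The one over the start of Dlx3, chr11:94981057-94982970, was 1914 bp wide with a value of 21.31 and held both Suz12 peaks.

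The Dlx5 and Dlx6 pair, on chromosome 6, had about as little Suz12 as Dlx3 and Dlx4, and H3K27me3 over most of the sequence from start to start. Dlx5 and Dlx6 pattern the lower jaw and the limb, and Dlx5 also promotes bone formation. Dlx6 had 5 Suz12 peaks in separate clusters, 3 upstream of the gene and 2 in the body. The upstream ones were chr6:6809724-6809923 (value 10.65), chr6:6809989-6810423 (13.1) and chr6:6810636-6811161 (14.55), which at rank 436 was the highest Suz12 peak of the pair. Those in the body were chr6:6814167-6814714 (548 bp, 10.88) and chr6:6814925-6815268 (344 bp, 12.5).

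Dlx5 had 2 Suz12 peaks, chr6:6829743-6830202 (8.05) and chr6:6830469-6830721 (11.57), both in the body. No Suz12 peak was listed over the 9830 bp between the genes or over the 10 kb upstream of Dlx5. The longest stretch without Suz12 was 14474 bp of the 18.7 kb from start to start. H3K27me3 ran through that stretch: it covered 69.3% of the sequence between the genes, and its longest gap from start to start was 1141 bp. It covered 88.6% of the Dlx5 body and 58.1% of the Dlx6 body.

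The 2 sides of this pair differed. Upstream of Dlx6, H3K27me3 covered 58.9% of 10 kb and Suz12 11.6%. Upstream of Dlx5, H3K27me3 covered 16.8% and Suz12 nothing. The highest H3K27me3 peak, chr6:6830373-6832029, lay over the placed start of Dlx5, with a value of 23.59 and 1657 bp. The next, with values of 22.55, were chr6:6813529-6814721 on Dlx6 (1193 bp) and chr6:6824054-6825561 between the genes (1508 bp). The widest were chr6:6828102-6830305 on Dlx5 (2204 bp, 15.77), chr6:6821741-6823879 between the genes (2139 bp, 14.74) and chr6:6809653-6811720 upstream of Dlx6 (2068 bp, 12.56), which held all 3 upstream Suz12 peaks.

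**Figure D2:**
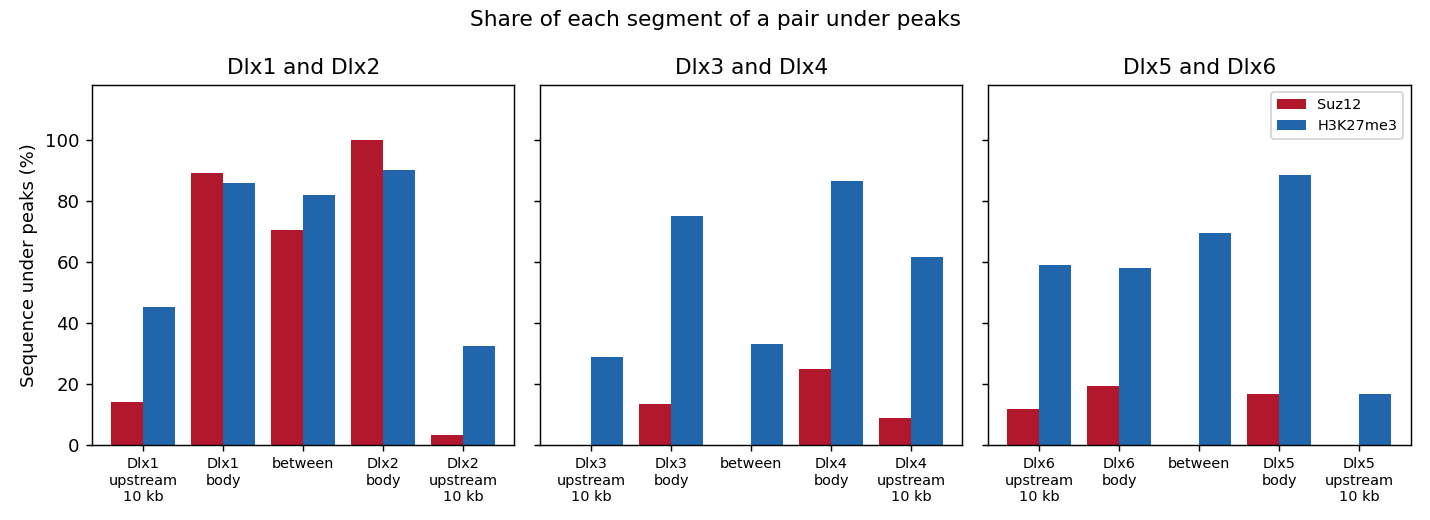
Percent of sequence under Suz12 peaks (red) and H3K27me3 peaks (blue) in each segment of a pair, ordered along the chromosome; there is 1 library per antibody and so no error bar. Suz12 covers 70.5% between Dlx1 and Dlx2 and 0% between the genes of the other pairs, where H3K27me3 covers 33.0% and 69.3%.

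The peak values showed the same split between the lists. At Dlx1 and Dlx2, 4 of 13 Suz12 peaks were in the top 10% of their list, which began at 21.2. At Dlx3 and Dlx4, 0 of 7 were, and at Dlx5 and Dlx6, 0 of 7. The Suz12 medians, 11.02, 9.19 and 11.57 in the order of the pairs, lay below the list's 11.67, so only the upper peaks of Dlx1 and Dlx2 stood high. Of H3K27me3 peaks, 8 of 25, 8 of 27 and 5 of 25 were in the top 10%, which began at 18.5. Their medians were 13.74, 13.26 and 12.06, against 11.21 over the whole list, and their highest values were 28.54, 25.01 and 23.59.

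**Figure D3:**
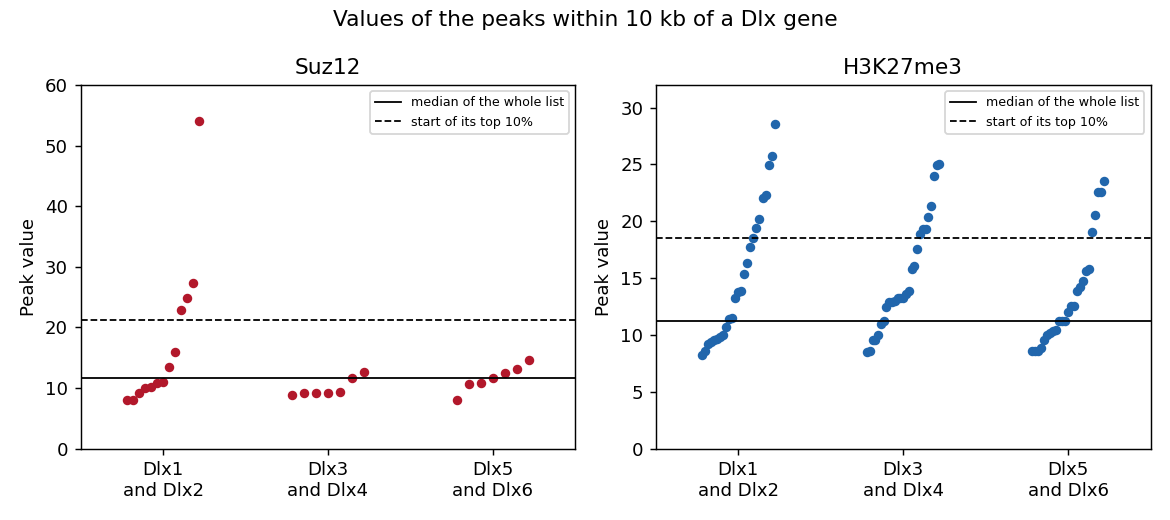
Deposited value of each peak within 10 kb of a Dlx gene, 1 point per peak in ascending order within a pair, for Suz12 (left) and H3K27me3 (right); the solid line is the median of the whole list and the dashed line the start of its top 10%. In the Suz12 panel points above the dashed line occur at Dlx1 and Dlx2 alone, up to 53.97, and in the H3K27me3 panel they occur at all 3 pairs.

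Neighbouring H3K27me3 peaks were merged into a domain where the gap between them was no longer than 5000 bp. At Dlx1 and Dlx2 a single domain, chr2:71361159-71395828, spanned both genes over 34.7 kb with 26 H3K27me3 peaks, and ranked 78 of 7663 domains by length. At Dlx5 and Dlx6 a single domain, chr6:6800069-6838215, spanned both over 38.1 kb with 26 peaks, at rank 59. At Dlx3 and Dlx4 each gene had a domain of its own, chr11:94973890-94990330 (16.4 kb, 13 peaks, rank 396) and chr11:94995619-95015814 (20.2 kb, 14 peaks, rank 269). The number of domains followed the joining gap: with 10000 bp the Dlx3 and Dlx4 pair also had 1 domain, of 54.9 kb, and with 1000 bp it had 4 and the Dlx5 and Dlx6 pair 3. With 1000 bp Dlx1 and Dlx2 still lay in 1 domain, of 27.6 kb and rank 9 of 12786.

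Nearly every Suz12 peak at a Dlx gene lay on H3K27me3, as nearly every Suz12 peak of the list did. Of the Suz12 peaks at Dlx genes 26 of 27 overlapped an H3K27me3 peak by at least 1 bp, or 96.3% (exact 95% binomial interval 81.0% to 99.9%). In the whole list 1423 of 1477 did, also 96.3% (95.3% to 97.2%). The exception was chr2:71371635-71371922, at the 3′ end of Dlx1. The intervals reflect counting alone, as though adjacent peaks were separate draws.

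Overlap counted over H3K27me3 peaks was larger at the Dlx genes than in the whole list. Of the H3K27me3 peaks at Dlx genes 24 of 77 overlapped Suz12, or 31.2% (21.1% to 42.7%), against 1222 of 25955 in the whole list, or 4.71% (4.45% to 4.97%). In bases this was 30.5% of the H3K27me3 sequence at Dlx genes and 6.44% of that in the whole list. By pair it was 16 of 25 peaks at Dlx1 and Dlx2 (64.0%, 42.5% to 82.0%), 3 of 27 at Dlx3 and Dlx4 (11.1%, 2.35% to 29.2%) and 5 of 25 at Dlx5 and Dlx6 (interval 6.83% to 40.7%). H3K27me3 peaks that overlapped Suz12 had the higher median value in each pair: 18.16 with and 11.41 without at Dlx1 and Dlx2, 24.94 and 13.26 at Dlx3 and Dlx4, and 15.77 and 11.21 at Dlx5 and Dlx6. Widths were not matched in these medians. At Dlx3 and Dlx4 the overlapping peaks, of 4968, 2201 and 1914 bp, were the widest of the pair. Of the H3K27me3 sequence, 63.0% lay under Suz12 at Dlx1 and Dlx2, 13.1% at Dlx3 and Dlx4 and 12.8% at Dlx5 and Dlx6.

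Gene by gene, the windows of gene body and 10 kb on each side overlap within a pair, so partners share peaks and the counts depend on the distance. With 20 kb in place of 10 kb, Suz12 counts became 13 at Dlx2 and 7 at Dlx5, the same as at their partners, and with 5 kb Dlx2 had 4. Suz12 covered 53.6% of the window of Dlx1 (13 peaks), 44.4% at Dlx2 (8), 9.0% at Dlx4 (5), 8.33% at Dlx6 (5), 2.94% at Dlx5 (2) and 2.73% at Dlx3 (2). Among the 14868 placed genes these shares ranked 6, 13, 106, 113, 206 and 214. A share is taken over a window that grows with the gene body, so it ranks short genes higher than a count of bases does. By bases under Suz12 the same genes ranked 6, 15, 134, 154, 270 and 275. For scale, genes with at least 1 Suz12 peak had a median share of 2.18% and 2 peaks, and a 90th percentile of 19.2%. Dlx3 and Dlx5 were thus near the median of genes with Suz12, and Dlx1 and Dlx2 above the 90th percentile.

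The H3K27me3 order was different and much closer. Its peaks covered 68.5% at Dlx1 (16 peaks), 62.5% at Dlx6 (19), 61.5% at Dlx2 (20), 56.8% at Dlx4 (14), 50.6% at Dlx5 (13) and 34.1% at Dlx3 (15). These shares ranked 36, 49, 53, 67, 91 and 194 among the placed genes. By bases under H3K27me3 the same genes ranked 69, 110, 134, 124, 176 and 335. Genes with at least 1 H3K27me3 peak had a median share of 2.94%, 3 peaks and a 90th percentile of 19.8%, so every Dlx gene lay above that percentile. A share of 50% or more was reached by 5 Dlx genes, and by 95 of the placed genes (0.639%).

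**Figure D4:**
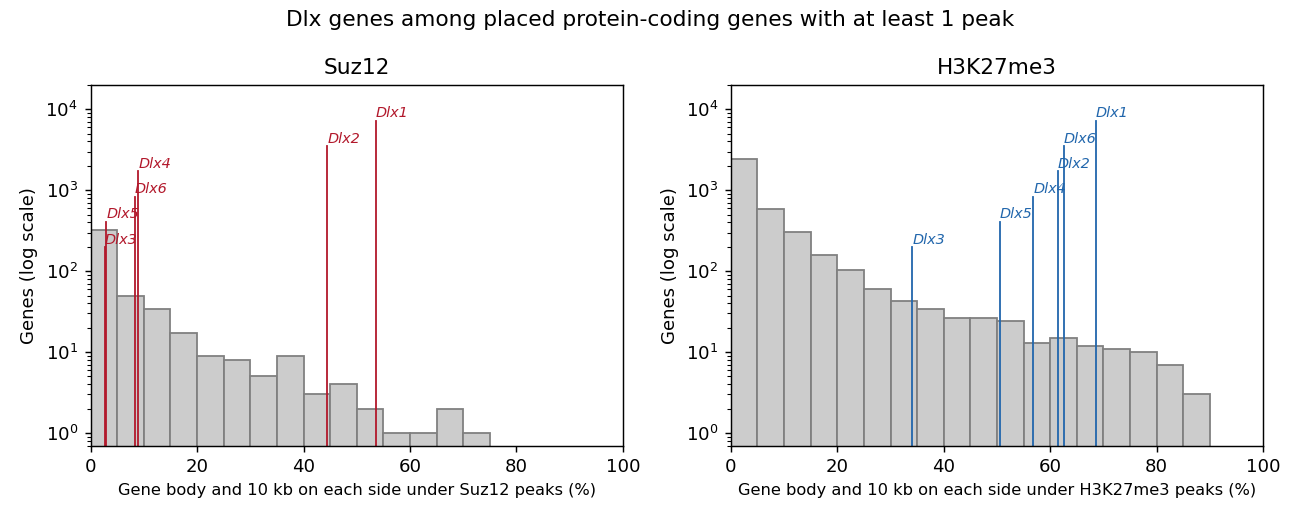
Number of placed protein-coding genes (log scale) by percent of gene body and 10 kb on each side under Suz12 peaks (left) and H3K27me3 peaks (right), among genes with at least 1 peak of that list; coloured lines mark the Dlx genes. For Suz12, Dlx1 and Dlx2 stand at 53.6% and 44.4% and the others below 10%, while for H3K27me3 the genes stand between 34.1% and 68.5%.

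Gene positions carried an error of their own, since genes were placed on mm9 by a shift rather than read from an mm9 annotation. Over 6 sets of positions, Suz12 covered 84.5% to 94.7% of the Dlx1 body, 79.3% to 100% of Dlx2, 21.2% to 24.9% of Dlx4, 18.2% to 19.2% of Dlx6 and 16.7% of Dlx5 each time. For Dlx3 it ranged from 0.502% to 13.3%, because its peaks lie at the edge of the placed body. The H3K27me3 shares ranged from 85.9% to 89.4% at Dlx1, 69.7% to 90.3% at Dlx2, 73.1% to 79.3% at Dlx3, 79.9% to 89.9% at Dlx4, 71.8% to 90.5% at Dlx5 and 47.8% to 63.1% at Dlx6. The gap in Suz12 between Dlx1 and Dlx2 and the other genes was wider than these ranges.

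Non-coding RNA genes lie inside the pairs or overlap them. Dlx1as, an antisense transcript at Dlx1, had 67.5% of its body under Suz12 and 73.4% under H3K27me3. Dlx4os had 7.77% under Suz12 and 52.8% under H3K27me3. Dlx6os1, the mouse locus of the long RNA Evf2 that regulates Dlx5 and Dlx6 in the embryonic forebrain, had 4.02% and 22.2%. Its body of 51085 bp is longer than the 18.7 kb from start to start of its pair, so these shares include sequence outside the pair. Dlx6os2 had 48.3% under Suz12 and 94.5% under H3K27me3, and Gm38659, inside the Dlx3 and Dlx4 pair, had no Suz12 peak and 74.9% under H3K27me3. The Dlx6os2 body is only 1354 bp, and the true error of its position is not known, so its shares are rough. Shares of the RNA genes under other positions were not computed. Peaks carry no strand, so those over a Dlx gene and its antisense partner cannot be told apart.

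Outside the pairs most neighbouring genes had few or no peaks on the body. Metap1d, which encodes a mitochondrial methionine aminopeptidase and ends 2.9 kb from the Dlx1 and Dlx2 pair, had no Suz12 peak and 2.56% of its body under 2 H3K27me3 peaks, all within the 2.5 kb of the gene nearest the pair. Gm36857 (44.6 kb away), the integrin gene Itga3 (43.3 kb), Gm11514 (30.5 kb) and Gm22155 (42.0 kb) had no peak of either list on the body. The bodies of Gm11514 and Gm22155 are only 486 and 164 bp. A body without a peak is common: 17.8% of placed protein-coding genes had an H3K27me3 peak there and 2.24% a Suz12 peak. Gm11515, 34.7 kb from the Dlx3 and Dlx4 pair, was the exception among the neighbours within 50 kb, with no Suz12 peak and 23 H3K27me3 peaks over 14.0% of its body.

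Genes that act upstream of, with or downstream of Dlx genes in forebrain and skeleton were listed with earlier results of these data known. Of the 13 reported, 9 could be placed on mm9. Of these 9, all had an H3K27me3 peak within 10 kb and 7 a Suz12 peak, beside 26.3% and 3.14% of the placed genes. On the gene body 9 had an H3K27me3 peak and 5 a Suz12 peak, beside 17.8% and 2.24%. The median share of their windows was 41.4% under H3K27me3 and 3.07% under Suz12, where the 6 Dlx genes had 59.1% and 8.66%; over all placed genes both medians were 0. Gbx1, Hand2, Msx1 and Msx2 could not be placed and are not analysed here.

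Of these 9 genes Sp9 had the largest share of its window under both lists. Sp9, a zinc-finger factor of striatal and interneuron development, had 4 Suz12 peaks over 49.8% of its window (highest value 41.38) and 15 H3K27me3 peaks over 60.4%, among them the highest of the whole list at 44.07. Its relative Sp8 had 15.4% under Suz12 and 46.0% under H3K27me3. Gsx2, which acts upstream of Dlx genes in neural progenitors, had 7.64% and 57.4%. Lhx6 and Lhx8, factors of inhibitory and cholinergic neurons, had 5.92% and 3.07% under Suz12 and 41.4% and 11.2% under H3K27me3.

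The bone factors differed between the 2 genes listed. Sp7, the osteoblast factor osterix, had 1 Suz12 peak (18.93) over 1.93% of its window and 16 H3K27me3 peaks over 41.8%, the highest at 35.76. Runx2, which lies in a far longer window, had 3 Suz12 peaks over 0.247% and 9 H3K27me3 peaks over 1.99%. The genes without a Suz12 peak were Gad1 and Gad2, the enzymes that make the transmitter GABA. Their H3K27me3 shares were 16.5% and 5.29%, with highest values of 25.37 and 16.07.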

How the data were processed

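ChIP-seq was done on 3 crypt chromatin libraries. Bowtie, MACS2 and build mm9 are named in the submitters' processing notes; their versions, settings and use of the input are not stated there. For each antibody the authors deposited a peak list with a score per peak (here the peak value) of unstated meaning. Read depth is unknown, so no limit for undetected peaks can be set. Members and gene lists were chosen with earlier results of these data known.

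No mm9 annotation was used. Gene bodies of RefSeq GRCm38.p6 were moved to mm9 by 1 constant shift per locus, searched up to 1 Mb beyond 0 and the difference in chromosome length. The shift chosen gave the largest excess of H3K27me3 within 1 kb of the start sites of other genes within 10 Mb over their surroundings out to 10 kb, and had to exceed the next best by 1.3 times. Start sites within 60 kb of a pair were left out. The ratios at the Dlx pairs were 3.63, 1.69 and 1.87. This procedure was chosen after seeing the data, because the one written first, with 3 Mb and start sites in a peak of either list, gave no clear best shift. It was run on simulated peaks set near start sites by design, which cannot show that the shifts found in the real lists are right. Over the settings of the procedure used, the shift ranged over at most 900 bp, from 160960 to 161860 bp at Dlx1 and Dlx2. It ran from 138480 to 138880 bp at Dlx3 and Dlx4 and from 50000 to 50180 bp at Dlx5 and Dlx6. Pairs were taken as convergent, which set the strands of Dlx3 to Dlx6. For the background, 14868 of 20665 autosomal protein-coding genes (71.9%) were placed, by 347 of 480 blocks of 5 Mb. There the start sites of the block itself were kept in, and its shift also had to lie close to that of another block within 10 Mb.

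Overlap meant at least 1 shared bp. Text names all Dlx genes, all their Suz12 peaks, the 3 highest and 3 widest H3K27me3 peaks per pair, genes within 50 kb and the listed pathway genes, of which some are not reported here and enter no count or median of that list. Alternatives changed the distance, threshold, joining gap, overlap and gene positions. Promoter sequences came from RefSeq, whose table matched Dlx1 and Dlx2. Tools were Python 3.11.15, numpy 2.4.6, pandas 2.3.3, scipy 1.17.1, matplotlib 3.10.9 and GenomeInfoDb 1.38.1, which gave the chromosome lengths.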

Additional observations from a re-analysis of the deposited data

How the results depend on the processing

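Of 164 values recomputed under alternatives, 127 stayed and 37 moved, where a count or length moved if it changed by over 1.5 times and the overlap if its share left the interval of the reported one. All 80 computed with gene bodies moved by 1 kb or placed by other settings, the latter chosen after seeing the data, stayed. These were counts over windows reaching 10 kb beyond the gene bodies, which such small moves could hardly change by that much. Shares of sequence were not among them. Over these positions Suz12 covered 0.502% to 13.3% of the Dlx3 body. Within 2 kb of the start it covered 32.7% to 82.7% at Dlx2 and 0% to 17.8% at Dlx5, but 16.5% to 17.2% at Dlx3. On the gene bodies alone the Suz12 count fell to 12 and the H3K27me3 count to 21. With the upper 50% of each list by value, 11 Suz12 peaks remained at Dlx genes, with 6, 2 and 3 at the pairs in order, and Dlx5 had none, while H3K27me3 gave 16 at Dlx1 and Dlx2 and 16 at Dlx5 and Dlx6. A joining gap of 1000 bp gave longest domains of 13.3 kb at Dlx3 and Dlx4 and 12.6 kb at Dlx5 and Dlx6, and one of 10000 bp gave 54.9 kb at Dlx3 and Dlx4. Counted within 1000 bp, 27 Suz12 peaks had an H3K27me3 peak. Of 108 values for single genes 25 moved, 1 of them to 0. Among these, with 20 kb Suz12 peaks numbered 13 at Dlx2 and 7 at Dlx5 and H3K27me3 peaks 23 at Dlx3 and 22 at Dlx5, and with 5 kb Suz12 peaks numbered 4 at Dlx2 and H3K27me3 peaks 13 at Dlx2 and 8 at Dlx5. The cause of the moves was not tested. No paired analysis was possible because there is 1 library per antibody, and for the same reason no replicate could be left out. Depth behind the lists is unknown.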
